A study of Homo sapiens with 9 samples.

Results

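The proteasome genes were taken from a table of raw counts as the protein-coding genes whose symbols begin with PSMA, PSMB, PSMC, PSMD, PSME, PSMF or PSMG and a number, with a mean of at least 1 CPM (counts scaled to a common library size, in counts per 1e+06) over 9 libraries. The symbols matched 50 of the 62710 genes in the table, and 46 of them reached the minimum. RNA came from early neuroepithelial cultures of the established human embryonic line H9, labelled as wild type. Cells on a Matrigel-coated silicone plate were kept for 72 h in mTeSR1, a pluripotency medium, and for 48 h in N2B27 medium with SB431542 and LDN, inhibitors of TGF-beta and BMP receptors (dual SMAD inhibition). The plate was then bent for 24 h to a concave shape (3 libraries) or a convex shape (3 libraries), or left flat for the same 24 h as the control (3 libraries), with both inhibitors present in every group. Libraries are named by plate shape and by the replicate number in their labels, as in flat 2. The labels do not tell whether replicates were grown as separate cultures; p-values measure only how far these libraries spread, and that spread may be technical.

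The proteasome is the main protease of the cytoplasm and nucleus and breaks down proteins tagged with ubiquitin. Its 20S core is a barrel of outer alpha rings, which gate the entrance, and inner beta rings, which hold the cutting sites. The 19S cap binds the core, takes up ubiquitin-tagged substrates and unfolds them with a ring of ATPases, while other activators (PSME proteins) open the core without ubiquitin. In cells exposed to interferon-gamma, and in blood cells, the cutting subunits are exchanged for those of the immunoproteasome, which makes peptides for antigen presentation. Human embryonic stem cells are known for high proteasome activity.

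The 46 genes comprised 7 of 8 20S alpha genes, 7 of 7 20S beta genes, 1 of 4 immunoproteasome or thymoproteasome beta genes, 6 19S ATPases, 11 non-ATPase subunits of the cap, 3 cap assembly factors filed under PSMD symbols, 5 activators or inhibitors, 4 assembly chaperones of the core, and 2 genes named after a subunit that their product binds (PSMC3IP and PSME3IP1), which are not subunits. The 20S core thus had 14 genes and the 19S cap 17. Below the minimum lay PSMB10 (0.978 CPM), PSMB9 (0.433 CPM), the testis-type alpha gene PSMA8 (0.0255 CPM) and the thymus-type gene PSMB11 (0 CPM). The lowest genes inside it were PSMA2 (3.27 CPM), PSMB8 (5.26 CPM) and PSMD9 (6.48 CPM), and 45 of the 46 had at least 5 CPM. All 46 passed the low-count filter of the tests, which kept 23075 genes.

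Total counts ran from 49420082 to 64763412 per library, with the lowest total in flat 2, and the 46 genes held between 0.448% and 0.684% of them. Of the markers of the labelled cell state, SOX2 (470 to 821 CPM), OTX2 (257 to 318 CPM) and POU5F1 (206 to 512 CPM) were high in all libraries, while PAX6 stood at 1.09 to 7.09 CPM and NANOG at 0 to 0.475 CPM. Of 8 blood and immune markers 6 averaged under 1 CPM, PTPRC and SPI1 among them. That list's sum ran from 50.9 to 64.6 CPM in concave, 41.0 to 58.7 CPM in convex and 52.2 to 86.9 CPM in flat libraries, nearly all of it CD74. Flat 2 stood apart from the rest: the median log2 deviation of transcripts under 1137 bases minus that of transcripts over 3907 bases was 0.52 there, against -0.18 to 0.09 in the other 8 libraries. Medians and counts at an unadjusted p against flat plates are given with and without it, and so are the log2 fold changes of single genes that moved by over 1.5 times.

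Levels were compared between genes per kilobase of transcript, using the median length of a gene's principal transcripts, so they depend on the annotated model. The mean levels of the 20S beta genes had a median of 141 CPM per kilobase and ran from 62.0 for PSMB2 to 253 for PSMB4. The 20S alpha genes had a median of 28.3 CPM per kilobase and ran from 2.20 for PSMA2 to 209 for PSMA7, a range of 94.9-fold in a class whose proteins enter the ring in equal numbers. The lowest of them, PSMA2, PSMA6 (10.2) and PSMA1 (17.9), are those overlapped by other gene models, as described below. The other alpha genes ran from 28.3 for PSMA5 to 209 for PSMA7. The range and the median of this class are thus uncertain. In the cap, the ATPases ran from 10.9 CPM per kilobase for PSMC1 to 80.4 for PSMC3, and the non-ATPase subunits from 21.1 for PSMD12 to 122 for PSMD4, a ubiquitin receptor. The assembly chaperones of the core lay close together, from 22.7 for PSMG3 to 27.8 for PSMG1, and the activators and inhibitor ran from 16.0 for PSMF1 to 196 for PSME3, the nuclear activator. PSMC3IP, a factor of meiotic recombination, had 10.7 CPM per kilobase and PSME3IP1 had 88.1.

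Some levels may be affected by overlapping gene models. In GENCODE release 29, another protein-coding gene model on the same strand covers 81.0% of the principal transcript of PSMA6, 53.2% of that of PSMA1, 52.5% of that of PSMA2 and 45.3% of that of PSMB10, and 43.8% of that of PSMD9 is covered by 2 such models. No other proteasome gene had more than 0.1% covered on its own strand. Counters usually leave out reads that fall on more than one gene, so the levels of these 5 genes, PSMA2 and PSMB10 among them, are uncertain. The overlapping models themselves held at most 2.20 CPM. On the opposite strand, gene models cover 82.1% of the principal transcript of PSMC1, 54.4% of that of PSMC3IP, 50.4% of that of PSMD7 and 27.2% of that of PSMC5. Whether the counting used strand is not known here.

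Transcripts of the cutting subunits were almost entirely of the constitutive kind. PSMB5, with chymotrypsin-like activity, had 121, 137 and 183 CPM in concave 1, 2 and 3, 130, 154 and 153 CPM in convex 1, 2 and 3, and 172, 242 and 176 CPM in flat 1, 2 and 3. PSMB8, which takes the place of PSMB5 in the immunoproteasome, had 4.38, 3.43 and 5.44 CPM in concave, 4.25, 3.48 and 4.71 CPM in convex, and 6.95, 8.31 and 6.35 CPM in flat libraries 1, 2 and 3. All flat libraries were thus above all curved ones for PSMB8, while for PSMB5 concave 3 exceeded flat 1 and flat 3. PSMB9, the immunoproteasome partner of PSMB6, had 14 to 50 counts per library (0.246 to 1.05 CPM, highest in flat 2), and PSMB10, the partner of PSMB7, had 43 to 79 counts (0.773 to 1.21 CPM). Summed per kilobase, PSMB8, PSMB9 and PSMB10 made up 1.32% to 1.58% of the 6 cutting subunits in concave, 1.12% to 1.52% in convex and 1.34% to 1.54% in flat libraries, so the groups overlapped in this share.

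To show the sequence context of genes described here, 300-base promoter windows (250 bases before and 50 after the annotated start, RefSeq, GRCh38.p14) were searched on both strands for 4 motifs. The table held windows for 40 of the 46 genes. The motifs were TGACNNNGC, the core of the antioxidant response element bound by NFE2L1 and NFE2L2 with small MAF proteins; CCAAT, bound by NF-Y; CCGGAAG, bound by ETS factors; and the core of the interferon-stimulated response element, a pair of GAAA with any 2 bases between. TGACNNNGC lay in 12 of the 40 windows (30.0%), against 13.6% of all 27305 windows and 14.7% of those of 12411 tested coding genes. The CCAAT box lay in 19 (47.5%), against 35.7% of all windows. CCGGAAG lay in 13 (32.5%), against 10.7% of all windows and 16.9% of those of tested coding genes. The GAAA pair lay in 5 (12.5%), against 3.65% of all windows. A match describes letters, not a bound site. Shown are 3 cap genes that were higher in the libraries numbered 3, and both subunits of the interferon-inducible activator, with matches of any of the 4 motifs in capitals, 5′ to 3′ on the gene's strand.
PSMD11: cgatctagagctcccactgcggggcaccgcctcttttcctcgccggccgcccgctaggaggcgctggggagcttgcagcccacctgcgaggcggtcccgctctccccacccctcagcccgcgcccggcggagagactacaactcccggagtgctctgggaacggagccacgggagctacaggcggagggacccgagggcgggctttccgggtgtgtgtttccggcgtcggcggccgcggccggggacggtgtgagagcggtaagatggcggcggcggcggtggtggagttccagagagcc
PSMC2: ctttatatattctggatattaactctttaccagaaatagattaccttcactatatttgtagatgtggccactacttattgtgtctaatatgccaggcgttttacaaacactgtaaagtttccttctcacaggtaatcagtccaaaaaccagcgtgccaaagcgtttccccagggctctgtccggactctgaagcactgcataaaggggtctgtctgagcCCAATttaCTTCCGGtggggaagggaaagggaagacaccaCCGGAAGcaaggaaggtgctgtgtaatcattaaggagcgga
PSMD12: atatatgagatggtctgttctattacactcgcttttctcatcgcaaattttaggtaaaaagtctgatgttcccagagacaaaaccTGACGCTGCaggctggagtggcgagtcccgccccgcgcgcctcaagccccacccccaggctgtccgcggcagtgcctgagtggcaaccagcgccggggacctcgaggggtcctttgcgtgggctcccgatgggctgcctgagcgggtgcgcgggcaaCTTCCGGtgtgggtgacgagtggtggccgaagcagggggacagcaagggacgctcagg
PSME1: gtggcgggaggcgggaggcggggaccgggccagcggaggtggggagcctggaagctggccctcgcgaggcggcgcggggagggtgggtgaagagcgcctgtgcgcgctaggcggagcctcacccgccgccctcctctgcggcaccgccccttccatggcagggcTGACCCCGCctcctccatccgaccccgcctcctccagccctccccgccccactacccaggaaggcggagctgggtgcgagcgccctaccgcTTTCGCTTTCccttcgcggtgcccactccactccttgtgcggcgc
PSME2: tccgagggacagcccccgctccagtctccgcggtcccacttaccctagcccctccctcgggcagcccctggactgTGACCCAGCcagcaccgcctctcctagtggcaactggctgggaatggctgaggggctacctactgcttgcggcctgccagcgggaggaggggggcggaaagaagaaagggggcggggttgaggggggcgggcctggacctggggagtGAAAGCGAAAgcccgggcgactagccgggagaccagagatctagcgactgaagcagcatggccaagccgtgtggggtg
The windows lie at chr17:32444260-32444559 on the plus strand (PSMD11), chr7:103347393-103347692 on the plus strand (PSMC2), chr17:67366528-67366827 on the minus strand (PSMD12), chr14:24135944-24136243 on the plus strand (PSME1) and chr14:24146561-24146860 on the minus strand (PSME2). The PSME1 and PSME2 windows each held TGACNNNGC, 86 and 175 bases before the start, and the GAAA pair, which began 5 bases after the start of PSME1 and 28 bases before that of PSME2. PSMC2 held 2 matches of CCGGAAG and a CCAAT box, PSMD12 held TGACNNNGC and CCGGAAG, and the PSMD11 window held none of the 4.

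Between curved and flat plates, most proteasome genes had lower means on the curved ones, but none passed the test, and the differences were smaller without flat 2. Summed over the 46 genes, the level was 4237, 4703 and 5832 CPM in concave 1, 2 and 3, 4514, 5080 and 5240 CPM in convex 1, 2 and 3, and 5332, 7109 and 5759 CPM in flat 1, 2 and 3. Flat 2 was above all others, and concave 3 lay above flat 1 and flat 3. Flat 2 had the highest value of the 9 libraries for 33 of the 46 genes (71.7%, against 27.7% of all tested genes) and for 12 of the 14 core genes, while concave 1 had the lowest for 28 of the 46 (60.9%, against 11.9% of all tested genes) and for 15 of the 17 cap genes. In bulk RNA, fewer cells of a kind and less RNA per cell cannot be told apart.

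**Figure D1:**
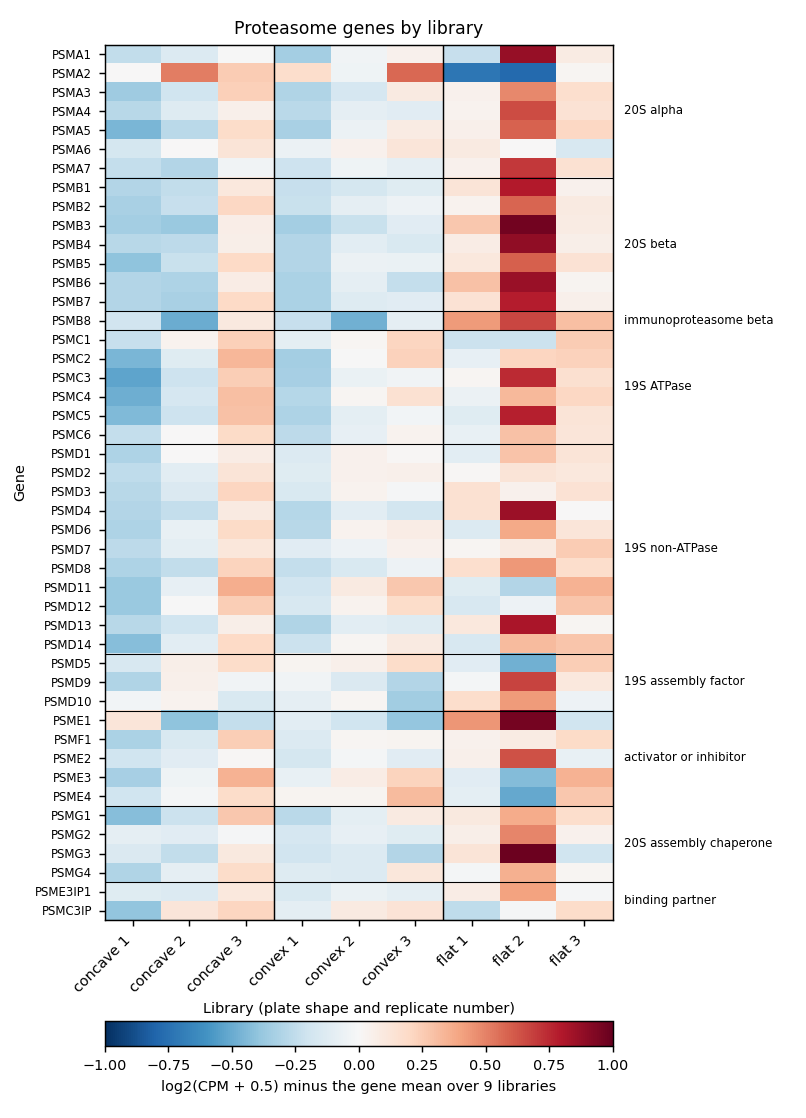
Proteasome genes (rows, grouped by class) in the 9 libraries (columns); colour gives log2(CPM + 0.5) minus the gene's mean over the libraries. Flat 2 is the highest column for 33 of 46 genes and concave 1 the lowest for 28, while PSMA2, PSMD5, PSMD11, PSME3 and PSME4 are low in flat 2.

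By class, the core summed to 1464, 1531 and 1965 CPM in concave 1, 2 and 3, 1500, 1688 and 1715 CPM in convex 1, 2 and 3, and 1942, 3002 and 1951 CPM in flat 1, 2 and 3. The convex sums all lay below the flat ones, and concave 3 lay within the flat range. The cap summed to 1981, 2300 and 2846 CPM in concave, 2155, 2480 and 2570 CPM in convex, and 2468, 3114 and 2787 CPM in flat libraries 1, 2 and 3, where both curved groups overlapped the flat one.

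**Figure D2:**
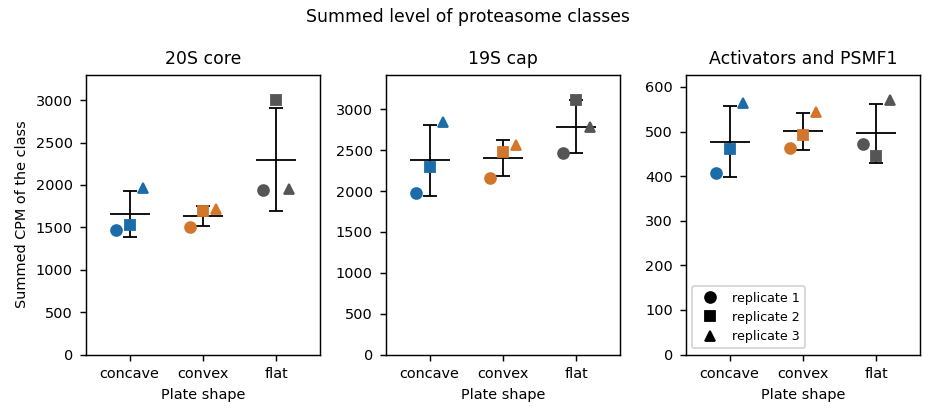
Summed CPM of the 20S core (14 genes), the 19S cap (17 genes) and the activators with the inhibitor PSMF1 (5 genes) by plate shape; symbols give the replicate number, and the bar and whiskers the mean and SD of 3 libraries. In the core, flat 2 (3002 CPM) lies far above the other 8 libraries (1464 to 1965 CPM).

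For concave against flat plates, edgeR's quasi-likelihood test called 0 of the 46 genes at an adjusted p under 0.05, as it called 0 of all 23075 genes (0%), and DESeq2 and limma voom also called 0. At an unadjusted p under 0.05, 10 of the 46 were lower and 1 was higher, against 2.56% and 1.98% of all genes. The log2 fold change was negative for 39 of the 46 (48.4% of all genes), with a median of -0.30 (all genes 0.01). The core had a median of -0.46 and the cap of -0.19, which were -0.21 and -0.12 without flat 2. Without flat 2 the median over the 46 was -0.14, with 43 of 46 negative (49.4% of all genes), and 1 gene had an unadjusted p under 0.05 (1.63% of all genes).

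The genes with the smallest p were core beta subunits and PSMB8. PSMB3, a structural beta subunit, had 82.4, 80.8 and 110 CPM in concave 1, 2 and 3 and 126, 204 and 110 CPM in flat 1, 2 and 3, with all concave values below the lowest flat one, concave 3 by little. Its means were 90.9 ± 16.2 and 147 ± 50.3 CPM (SD, n = 3 each), with a log2 fold change of -0.69 ± 0.23 (SE) and an edgeR adjusted p of 0.841, and the fold change was -0.37 without flat 2. PSMB6, with caspase-like activity, had 104, 102 and 134 CPM in concave and 156, 232 and 129 CPM in flat libraries, overlapping at the number 3 (log2 fold change -0.61 ± 0.22, edgeR adjusted p = 0.841, and -0.33 without flat 2). PSMB8, with the values above, averaged 4.42 ± 1.01 CPM in concave and 7.21 ± 1.00 CPM in flat libraries (log2 fold change -0.71 ± 0.26, adjusted p = 0.841), and -0.59 without flat 2. The groups did not overlap for 5 of the 46, all lower (PSMA7, PSMB3, PSMB4, PSMB8 and the chaperone PSMG2), against 2.96% of all genes.

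PSMA2 was the gene furthest in the other direction, with 3.11, 4.64 and 3.79 CPM in concave 1, 2 and 3 and 1.68, 1.60 and 3.16 CPM in flat 1, 2 and 3 (log2 fold change 0.84 ± 0.34, edgeR adjusted p = 0.841, and 0.67 without flat 2). Concave 1 lay just below flat 3, so the groups overlapped, and PSMA2 is among the genes whose transcript another model covers. PSMD5, a factor of cap assembly, averaged 68.5 ± 8.05 CPM in concave and 62.9 ± 15.9 CPM in flat libraries, and PSME4, the activator PA200, 149 ± 20.1 and 142 ± 37.7 CPM (SD, n = 3 each), with adjusted p of 0.841 or more in edgeR. Without flat 2 both log2 fold changes were negative, at -0.04 and -0.09.

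For convex against flat plates, edgeR also called 0 of the 46, against 0% of all genes; limma voom called 0 and DESeq2 called 0 of the 46 and 1 gene in all. At an unadjusted p under 0.05, 12 of the 46 were lower and 1, PSMA2, was higher, against 5.22% and 4.03% of all genes. The log2 fold change was negative for 38 of the 46 (49.2% of all genes), with a median of -0.34, of -0.44 in the core and of -0.19 in the cap. The groups did not overlap for 20 of the 46, all lower (7.76% of all genes), and 35 were lower in convex than in flat at each of the 3 replicate numbers (25.3% of all genes). Without flat 2 the median was -0.19, that of the core -0.24 and that of the cap -0.11, and 3 genes had an unadjusted p under 0.05 (3.43% of all genes). With the replicate number as a block, 0 were called and 19 of the 46 had an unadjusted p under 0.05 (18.3% of all genes).

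**Figure D3:**
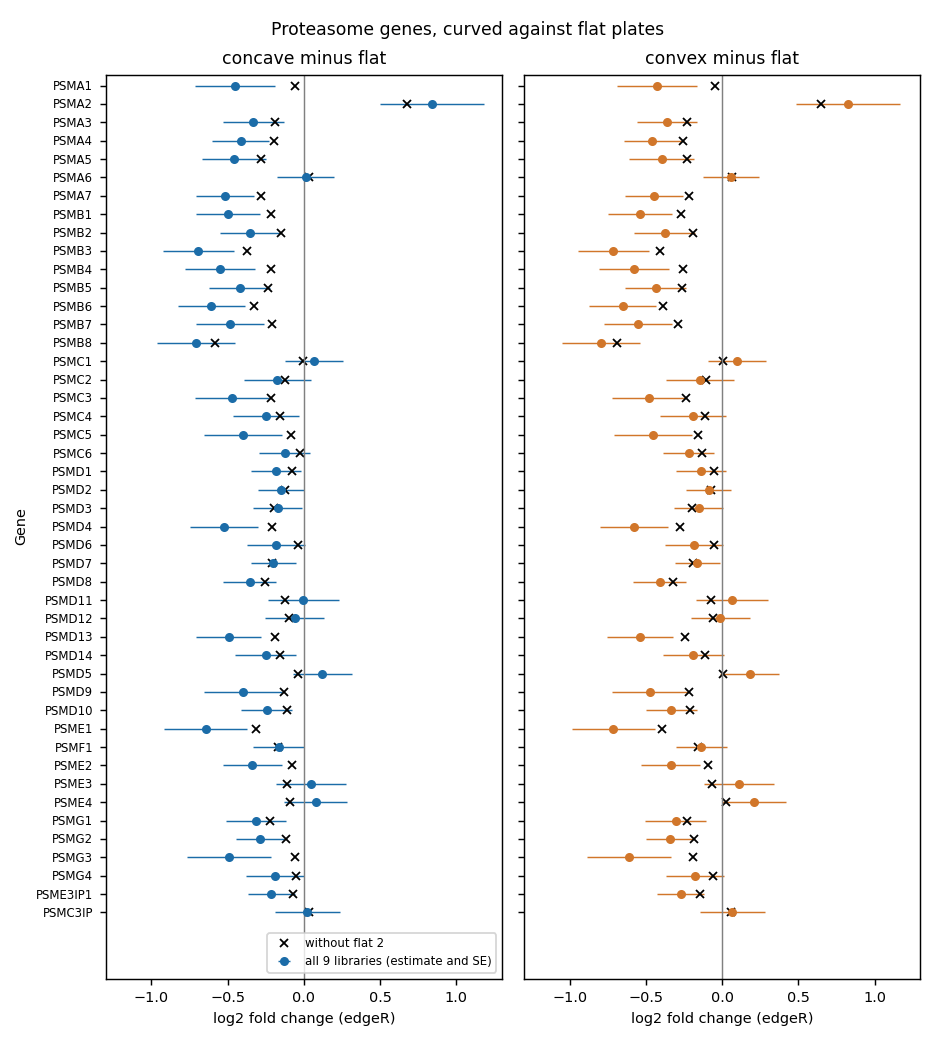
The log2 fold change (edgeR) of each of the 46 genes, concave minus flat on the left and convex minus flat on the right, with SE from all 9 libraries (circles) and without flat 2 (crosses). Most circles lie below 0, with medians of -0.30 and -0.34, and the crosses lie closer to 0, with medians of -0.14 and -0.19.

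PSMB8 had the smallest p, with 4.15 ± 0.62 CPM in convex and 7.21 ± 1.00 CPM in flat libraries (SD, n = 3 each), a log2 fold change of -0.80 ± 0.25 (SE) and an edgeR adjusted p of 0.513; the fold change was -0.69 without flat 2. PSMB3 had 82.2, 89.6 and 96.6 CPM in convex 1, 2 and 3, all below its flat values, and a log2 fold change of -0.72 ± 0.23 (adjusted p = 0.513, and -0.41 without flat 2). PSMB6 had 102, 119 and 108 CPM in convex libraries, also below all flat ones (log2 fold change -0.65 ± 0.22, adjusted p = 0.513, and -0.39 without flat 2). PSMB7, with trypsin-like activity, had 110, 107 and 155 CPM in concave, 108, 123 and 124 CPM in convex, and 149, 232 and 140 CPM in flat libraries 1, 2 and 3. The convex values of PSMB7 lay below all flat ones and its concave ones overlapped them, with log2 fold changes of -0.49 ± 0.22 for concave and -0.55 ± 0.22 for convex against flat (edgeR adjusted p = 0.841 and 0.513), which were -0.21 and -0.29 without flat 2. For PSMB5 these were -0.42 ± 0.20 and -0.44 ± 0.20, with the same adjusted p, and -0.24 and -0.27 without flat 2.

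In the cap, PSMD4 had 130, 135 and 170 CPM in concave 1, 2 and 3, 130, 148 and 140 CPM in convex, and 177, 289 and 160 CPM in flat libraries. Its convex values lay below all flat ones and concave 3 lay above flat 3, with log2 fold changes of -0.52 ± 0.22 and -0.58 ± 0.22 against flat (edgeR adjusted p = 0.841 and 0.513), which were -0.21 and -0.28 without flat 2. PSMD14, the deubiquitinase that removes the ubiquitin chain, had 83.3, 105 and 129 CPM in concave, 96.8, 114 and 120 CPM in convex, and 100, 140 and 136 CPM in flat libraries, and the groups overlapped (log2 fold changes -0.25 ± 0.20 and -0.19 ± 0.20, edgeR adjusted p of 0.513 or more, and -0.16 and -0.11 without flat 2).

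No activator passed the test. PSME1 had 25.7, 17.7 and 19.95 CPM in concave 1, 2 and 3, 21.97, 20.6 and 17.96 CPM in convex, and 32.3, 46.4 and 20.6 CPM in flat libraries. Its partner PSME2 had 47.1, 49.97 and 54.5 CPM in concave, 47.9, 53.4 and 50.1 CPM in convex, and 56.0, 84.2 and 51.2 CPM in flat libraries. For both, flat 2 was highest and flat 3 lay within the range of the curved libraries. The log2 fold changes of PSME1 were -0.64 ± 0.27 for concave and -0.71 ± 0.27 for convex against flat (edgeR adjusted p = 0.841 and 0.513), and -0.32 and -0.40 without flat 2. PSME3 and PSME4, by contrast, had their lowest values of the 9 libraries in flat 2 (143 and 105 CPM).

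No proteasome gene passed the test between concave and convex plates. The log2 fold change of concave against convex had a median of 0.01 over the 46 genes and ran from -0.13 to 0.12, with SEs of about 0.20; edgeR called 0 (0% of all genes), 0 had an unadjusted p under 0.05 (0.282% of all genes), and DESeq2 called 0. By number, the median difference was -0.11 between the libraries numbered 1, -0.10 between those numbered 2 and 0.15 between those numbered 3, where 42 of the 46 were higher in concave 3 than in convex 3. The largest differences were those of PSME4 (-0.13 ± 0.21), PSMG3 (0.12 ± 0.28) and PSMC6 (0.09 ± 0.17).

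How far a gene was raised in flat 2 went with its transcript length. The log2 level in flat 2 minus the mean of flat 1 and 3 ran from -0.60 for PSME4, whose principal transcript of 7099 bases is the longest of the 46, to 1.02 for PSMG3, with 1007 bases. Over the 46 genes its Pearson r with log2 length was -0.52 and Spearman's rho -0.52, and over 21940 tested genes with a length r was -0.34 and rho -0.38; genes are not independent replicates, and all values share the same 3 libraries. All 7 beta genes, with 773 to 2701 bases, lay between 0.47 and 0.82. PSME3, with 998 annotated bases and a value of -0.55, departed from this order. So did others, among them PSMA2 (1487 bases, -0.43), PSMD9 (2784 bases, 0.63) and PSMA5 (3729 bases, 0.46). With a correction for length in every library, the median log2 fold change over the 46 was -0.20 for concave and -0.18 for convex against flat, and limma called 0.

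**Figure D4:**
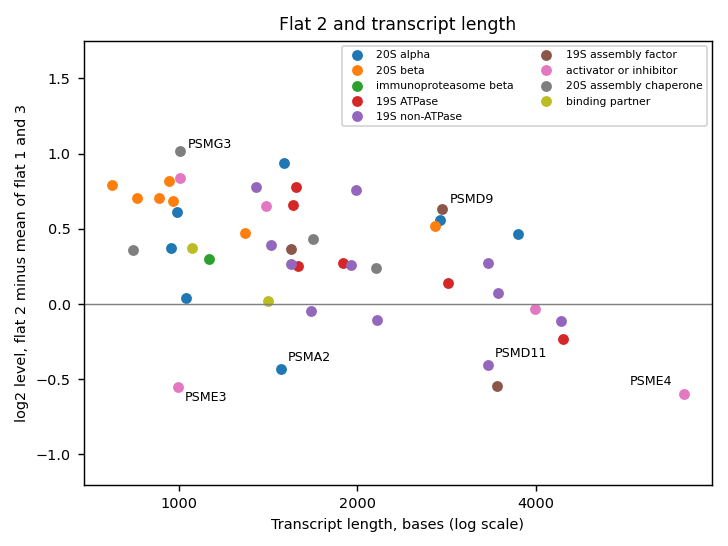
The log2 level in flat 2 minus the mean of flat 1 and flat 3 (vertical axis) against transcript length in bases (log axis) for the 46 genes, coloured by class. Short transcripts tend to lie high, with PSMG3 at 1.02 and PSME4, the longest, at -0.60.

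Plate shape could also be compared within replicate numbers. The median log2 difference of concave minus flat over the 46 genes was -0.29 for number 1, -0.59 for number 2 and 0.04 for number 3, and 45, 37 and 19 of the 46 were lower in concave. That of convex minus flat was -0.23, -0.53 and -0.14, with 40, 37 and 41 lower in convex. At number 3 fewer genes were lower than higher in concave, while most were lower in convex.

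The libraries numbered 3 differed from those numbered 1 and 2 in all 3 plate shapes, and several cap genes were higher in them. In a fit with plate shape and number, 5 of the 46 genes were called, all higher in number 3 (10.9%), against 17.9% of all genes called and 8.79% called higher. They were PSMD11, PSMC2, PSMD12, PSME3 and PSMC1. The share called was thus below that of all genes, while 0 of the 46 were called lower, against 9.14% of all genes. The labels do not say what the numbers mark. The same libraries also had more POU5F1 (481 to 512 CPM, against 206 to 366 CPM in numbers 1 and 2) and less SOX2 (470 to 577 CPM, against 739 to 821 CPM), and the sum of the 4 endothelial markers was 93.6 to 118 CPM, against 35.0 to 65.6 CPM. Of these, KDR averaged 80.4 CPM against 32.7 CPM and TEK 23.9 CPM against 19.9 CPM, while CDH5 averaged 0.720 CPM against 2.96 CPM and PECAM1 0.504 CPM against 1.47 CPM. The sums of the 5 non-neural ectoderm markers (32.9 to 37.6 CPM, against 16.4 to 26.4 CPM), the 4 endoderm markers (6.26 to 12.0 CPM, against 1.87 to 5.31 CPM) and the 4 mesoderm markers (1.53 to 2.13 CPM, above the sums in all 6 other libraries) were also higher in the libraries numbered 3. In number 3 these sums were mainly KRT7, FOXA2 and TBXT, respectively. FOXA2 had 5.13 to 10.4 CPM, against 0.0588 to 0.659 CPM. CXCR4, of the same list, was lower (1.03 to 1.37 CPM, against 1.44 to 5.21 CPM). In the mesoderm list, MESP1 had 0.141 to 0.207 CPM, against 0.108 to 0.505 CPM. The sum of the 3 neural crest markers was 7.06 to 8.02 CPM, against 7.99 to 14.1 CPM. This sum was mainly SOX10, while FOXD3 was higher in number 3 (0.314 to 0.809 CPM, against 0 to 0.0421 CPM). The 6 fibroblast and mesenchyme markers summed to 1169 to 1623 CPM, against 771 to 1439 CPM, mainly COL1A1 and COL1A2. COL1A1 overlapped between the numbers (911 to 1400 CPM, against 462 to 1055 CPM). COL1A2 was lower in number 3 (219 to 254 CPM, against 267 to 410 CPM) and PDGFRA higher (3.62 to 3.94 CPM, against 1.69 to 2.46 CPM). The other 3 averaged under 1 CPM. The part of these markers in the result was not tested.

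PSMD11, a scaffold subunit of the lid known for a role in the high proteasome activity of human embryonic stem cells, had 232, 218 and 230 CPM in concave 3, convex 3 and flat 3. In number 2 it had 171, 192 and 148 CPM and in number 1 it had 140, 158 and 166 CPM in concave, convex and flat libraries. Each library numbered 3 was above every other. The means were 227 ± 7.61 CPM in number 3 (SD, n = 3) and 163 ± 18.5 CPM in numbers 1 and 2 (SD, n = 6), with a log2 fold change of 0.49 ± 0.12 (SE) and an edgeR adjusted p of 0.0262. PSMC2, an ATPase, had 122, 114 and 113 CPM in concave 3, convex 3 and flat 3, against 70.4 to 112 CPM in the other 6 libraries, without overlap (log2 fold change 0.40 ± 0.12, edgeR adjusted p = 0.0432). PSMD12, a lid subunit next to PSMD11 in the cap, had 109, 105 and 112 CPM in number 3 and 71.1 to 94.1 CPM in numbers 1 and 2 (0.36 ± 0.11, adjusted p = 0.0465).

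PSME3 had 245, 226 and 246 CPM in concave 3, convex 3 and flat 3, against 143 to 203 CPM in numbers 1 and 2, and PSMC1, another ATPase, had 57.0, 56.2 and 57.7 CPM, against 41.0 to 49.4 CPM. In neither did the numbers overlap. The log2 fold changes were 0.46 ± 0.14 for PSME3 and 0.36 ± 0.11 for PSMC1 (edgeR adjusted p = 0.0475 and 0.0486). PSME4 also had all number 3 values above the rest (170 to 187 CPM, against 105 to 152 CPM) and missed the threshold (0.38 ± 0.13, adjusted p = 0.0727). In all, 8 of the 46 did not overlap, all higher (11.7% of all genes).

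For number 3, the median log2 fold change was 0.20 over the 17 cap genes, 15 of them positive and 4 called, and 0.05 over the 14 core genes, with 12 positive and 0 called; 50.9% of all genes were positive. This difference between classes was not tested. PSMB5 had 183, 153 and 176 CPM in concave 3, convex 3 and flat 3 and 121 to 242 CPM in the other libraries, highest in flat 2 (log2 fold change 0.15 ± 0.15, edgeR adjusted p = 0.535). Without flat 2 the core median was 0.18 and the cap median 0.24, and 9 of the 46 were called (19.6%, against 23.5% of all genes).

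**Figure D5:**
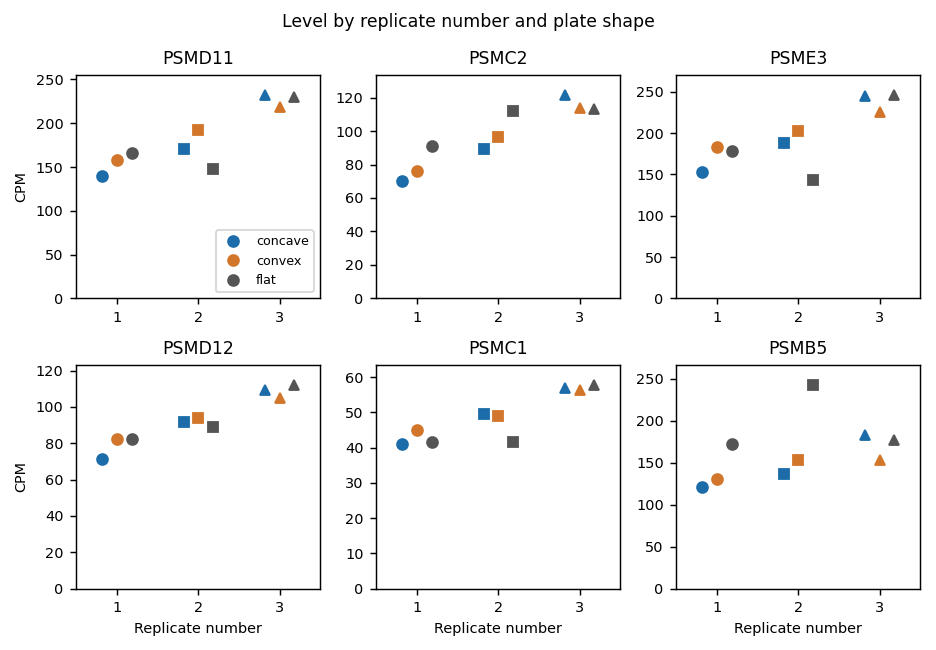
CPM by replicate number for the 5 genes called in number 3 against numbers 1 and 2 and for PSMB5, which was not; colour gives the plate shape. For the 5 called genes the libraries numbered 3 lie above the other 6, and PSMB5 is highest in flat 2 at 242 CPM.

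On the lower side, PSMD10, the cap assembly factor known as gankyrin, had the smallest p, with 90.3, 78.8 and 97.2 CPM in concave 3, convex 3 and flat 3, against 94.4 to 135 CPM in numbers 1 and 2 (log2 fold change -0.27 ± 0.11, edgeR adjusted p = 0.111). PSME1 followed, with 19.95, 17.96 and 20.6 CPM against 17.7 to 46.4 CPM (-0.42 ± 0.21, adjusted p = 0.194). Both overlapped between the numbers, and neither passed the test, though PSMD10 did so with no scaling factors (adjusted p = 0.0336) and PSME1 did so without concave 2 (log2 fold change -0.57, adjusted p = 0.0419). The 5 calls above were close to the threshold: leaving out single libraries gave between 0 and 9 called genes, with 0 without concave 1, concave 3, convex 1, convex 2 or convex 3, 1 without flat 1 or flat 3, and 9 without flat 2. Without concave 2 the count was 5, but it took in PSME1 and not PSMC2 or PSMD12 (adjusted p = 0.0870 and 0.0697). Upper-quartile factors left PSMD11 alone, and with no scaling factors none of the 5 was called and PSMD10 was the 1 called gene. Without concave 3 the median over the 46 was -0.01, in place of 0.17.

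Number 2 against number 1 gave 0 called genes in edgeR, among the 46 and in all (0%), and DESeq2 called 0 of the 46 and 154 genes in all. Of the 46, 42 had a positive log2 fold change (47.9% of all genes), with a median of 0.27 that was 0.12 without flat 2. At an unadjusted p under 0.05 (edgeR), 8 were higher and 0 lower, against 3.88% and 4.66% of all genes. Without flat 2 the count in either direction was 4 (8.7%, against 9.93% of all genes), 1 of them lower. PSMD14 (0.35 ± 0.13), PSMD6 (0.36 ± 0.14) and PSMA1 (0.53 ± 0.21) had the smallest p (edgeR adjusted p of 0.547 or more). PSMA1 had 23.7, 25.5 and 48.1 CPM in concave 2, convex 2 and flat 2, against 20.5 to 22.2 CPM in number 1. PSMD6, a lid subunit, had 117, 126 and 160 CPM in concave 2, convex 2 and flat 2, against 99.3, 101 and 112 CPM in concave 1, convex 1 and flat 1, without overlap. PSMB8 was one of 4 genes with a negative value, at -0.11 (adjusted p = 0.893).

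Other genes of the pathway were examined as a list. Of 41 tested genes (subunits under other symbols, assembly, cofactors, transcriptional control, ubiquitin genes, shuttles and antigen processing), 0 were called in any comparison of plate shapes. The median log2 fold change over this list was -0.02 for concave and 0.02 for convex against flat, and -0.11 and -0.07 without flat 2. At an unadjusted p under 0.05, 7 of the 41 were lower in convex (5.22% of all genes), and without flat 2 the count in either direction was 1 (3.43% of all genes). Among them were B2M, the light chain of class I molecules (-0.69 ± 0.19), the small lid subunit SEM1, and POMP. POMP, the maturation factor of the core, had 67.8, 65.5 and 92.4 CPM in concave 1, 2 and 3, 63.6, 75.95 and 85.4 CPM in convex, and 82.4, 162 and 92.1 CPM in flat libraries, highest in flat 2. Its log2 fold changes against flat were -0.57 ± 0.26 for concave and -0.58 ± 0.26 for convex (edgeR adjusted p = 0.841 and 0.513), and -0.21 and -0.23 without flat 2.

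In number 3 against numbers 1 and 2, 6 of the 41 were called (14.6%, against 17.9% of all genes), 5 higher and 1 lower. NFE2L1 is the factor known to raise proteasome gene transcription when proteasome activity is short. In concave 3, convex 3 and flat 3 it had 368, 369 and 345 CPM. In numbers 1 and 2 it had 191 to 290 CPM, with the lowest value in flat 2. Its numbers did not overlap (log2 fold change 0.47 ± 0.13, edgeR adjusted p = 0.0414, and 0.39 without flat 2, adjusted p = 0.0162). The small MAF genes, whose products pair with it on DNA, were all called higher: MAFG (0.60 ± 0.13, adjusted p = 0.0142), MAFK (0.83 ± 0.19, adjusted p = 0.0188) and MAFF (1.14 ± 0.27, adjusted p = 0.0199), the last at 0.526 to 2.53 CPM. ECPAS, which links core and cap, was higher (0.39 ± 0.10, edgeR adjusted p = 0.0277), and how far its call depends on single libraries is not reported here. PAAF1, an assembly factor of the cap, was lower, with 16.0, 17.0 and 15.7 CPM in concave 3, convex 3 and flat 3, against 20.9 to 44.98 CPM (-0.73 ± 0.20, adjusted p = 0.0363). For POMP the log2 fold change of number 3 was 0.15 ± 0.20 (adjusted p = 0.649). NFE2L1 missed the threshold when any 1 library was left out other than flat 1 or flat 2, at adjusted p of up to 0.175, and with upper-quartile factors or no scaling factors (adjusted p = 0.0544 and 0.0985). Leaving out 1 library also took the adjusted p of MAFG to as much as 0.121, of MAFK to 0.148, of MAFF to 0.165 (each without convex 3) and of PAAF1 to 0.114 (without flat 3).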

How the data were processed

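Polyadenylated RNA of 9 libraries was measured, in 3 groups of 3. The authors deposited 1 table of raw, unnormalized counts for each gene; the submitters' processing notes name HISAT2, featureCounts and the build GRCh38. Not given in the sources used here: tool versions, annotation release and whether counting used strand. Per the labels' protocols, libraries were strand-specific. Symbols were found for 62639 of 62710 gene identifiers; coordinates and lengths came from GENCODE release 29.

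Tests used edgeR 4.0.16 (filterByExpr, TMM scaling, robust quasi-likelihood test on all 9 libraries), limma 3.58.1 and DESeq2 1.42.0, in R 4.3.3. Plate shapes were compared with 1 coefficient per group, and replicate numbers in a fit with plate shape and number. P-values are two-sided, with Benjamini-Hochberg adjustment over all 23075 genes in each of 5 comparisons, called under 0.05. Common biological coefficients of variation were 0.329 and 0.217, and the median SE over the 46 genes was 0.20 for shapes and 0.14 for number 3. The length correction subtracted a lowess curve (span 0.3) of log2 deviation on log2 length library by library; 95.1% of tested genes had a length. The fits were tested on simulated counts. No replicates agreed within sampling noise (chi-square per degree of freedom 19.7 to 284.6).

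Same-numbered libraries were checked for pairing by correlating their deviations from group means across genes. For numbers 1, 2 and 3, r was 0.493, 0.034 and 0.397 for concave and flat, 0.509, 0.493 and 0.701 for convex and flat, and 0.709, 0.414 and 0.710 for concave and convex, so with a minimum of 0.1 the numbers paired convex with flat and concave with convex.

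Named genes were the cutting subunits PSMB5 to PSMB10, PSME1, PSME2, PSMD4, PSMD11, PSMD14, POMP and NFE2L1, the highest and lowest per kilobase in each class, up to 3 genes per direction with the smallest p in each comparison, and up to 3 called pathway genes per direction. PSMB1 to PSMB4 values, MAFF, ECPAS, B2M, SEM1 and genes named in a count were added after their values were seen. The members, lists and comparisons of numbers were chosen with earlier results of these data known. Some genes of the pathway list are not reported here by name.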

Additional observations from a re-analysis of the deposited data

How the results depend on the processing

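The medians of the 46 genes against flat kept their sign under every alternative run, and 0 of the 46 were called for any pair of plate shapes under any of them. The median of concave against convex, 0.01, changed sign when single libraries were left out (-0.12 to 0.11). In convex against flat, DESeq2 called 1 gene in all. With the replicate number as a block the medians were -0.29 for concave and -0.32 for convex against flat, with 0 genes called, and the block changed no other call. For number 3 against numbers 1 and 2, 5 of the 46 were called (10.9%, against 17.9% of all genes). The length correction gave 10 (21.7%, against 24.3% of all genes). Upper-quartile factors gave 1 (PSMD11), and scaling by library size alone 1 (PSMD10, lower, and none of the 5). No low-count filter gave 2. The curved libraries alone, an alternative chosen after seeing the data, gave 10. For the last 4 alternatives the shares of all genes are not given here. Leaving out single libraries gave 0 to 9 called of the 46, 1077 to 5575 genes in all in place of 4137, and a median from -0.013 (without concave 3) to 0.25. For number 2 against number 1, with 0 genes called, DESeq2 size factors gave 1, no low-count filter 108, DESeq2 154, the length correction 2, the curved libraries alone 22, and leaving out single libraries 0 to 11. The cause of these changes was not tested. Between plate shapes, log2 differences near the median SE of 0.20 could not be detected with 3 libraries a group. Larger ones were not called either, such as -0.80 for PSMB8 in convex and 0.84 for PSMA2 in concave against flat.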

Other observations

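Non-coding genes named after proteasome genes were left out by the rule. PSMA3-AS1, antisense to PSMA3, had 35.8, 52.7 and 40.5 CPM in concave 1, 2 and 3, 44.2, 41.3 and 50.2 CPM in convex 1, 2 and 3, and 29.8, 44.3 and 33.3 CPM in flat 1, 2 and 3, and the groups overlapped. PSMG3-AS1 had 6.47, 4.90 and 2.42 CPM in concave, 5.37, 6.26 and 3.69 CPM in convex, and 5.22, 3.66 and 3.75 CPM in flat libraries. PSMB8-AS1 lay at 0.0414 to 0.358 CPM, highest in flat 2, and PSMD6-AS1 had 0 counts in all 9 libraries. In the GENCODE release used here, other gene models cover 0.0% of the principal transcripts of PSMA3, PSMG3, PSMB8 and PSMD6 on either strand. Under that annotation, reads on these transcripts are separated from those of antisense genes by position, without the counting's strand setting. Overlap with other transcripts of these genes was not tested, and the annotation used in the counting is not known.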
